A study of Mus musculus with 12 samples.

Results

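A set of 10 genes of the Notch signalling pathway was followed across mouse embryonic stem cells labelled as having lost, kept or gained the transcription factor Foxd3. They were the ligand genes Dll1, Dll3 and Jag1, the receptor genes Notch1, Notch2 and Notch3, the fringe gene Lfng, and the effector genes Hes1, Hes6 and Hey1. The members were the rows of the 3 deposited tables with these gene symbols, 10 of 19996 genes, and each symbol had 1 row in every table. Polyadenylated RNA was sequenced from 12 libraries in 6 groups of 2. In serum with leukemia inhibitory factor (SL, 15% serum, on irradiated fibroblast feeders), SL Foxd3-/- cells were Foxd3fl/fl;Cre-ER cells given 2 µM 4-hydroxytamoxifen (TM) for 3 days, and SL Foxd3fl/fl cells were the same line untreated. The same pair was made in 2i medium, which is serum-free and holds the inhibitors PD0325901 at 0.4 µM and CHIR99021 at 3 µM with leukemia inhibitory factor: 2i Foxd3-/- cells were given TM at the same dose and time, and 2i Foxd3fl/fl cells were untreated. Feeders are not named for 2i. The last pair was tetON Foxd3 cells, which carry an inducible Foxd3 transgene, against WT cells; both received doxycycline at 1 µg/µl for 3 days in 15% serum without feeders. No group received TM without the floxed allele, so TM and deletion cannot be told apart, and medium and feeders cannot be told apart either. Whether replicates were grown apart is not in the labels, so a p-value here measures a spread between samples that may be technical.

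Notch receptors are single-pass membrane proteins that are cleaved when a Delta or Jagged ligand on a neighbouring cell pulls on them. The released intracellular domain enters the nucleus and binds RBPJ, the DNA-binding protein of the pathway, which then turns from repression to activation of targets such as Hes1 and Hey1. Lfng is a glycosyltransferase that adds sugar to the receptor and changes which ligands activate it. In mouse embryonic stem cells the pathway is known mainly for its part in the choice of neural fate during differentiation, and in the embryo Dll1, Dll3, Lfng and Hes genes are known for the segmentation clock of the presomitic mesoderm.

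Foxd3 itself was checked first, as FPKM (fragments scaled by transcript length and library size). SL Foxd3-/- libraries held 1.62 and 1.83 FPKM, against 4.53 and 4.81 in SL Foxd3fl/fl libraries, a difference of -1.06 on the log2(FPKM + 1) scale (95% interval -1.42 to -0.70, limma adjusted p = 0.137). Libraries labelled 2i Foxd3-/- held 2.07 and 2.45 FPKM, against 2.51 and 2.42 in 2i Foxd3fl/fl libraries (log2 difference -0.09, interval -0.33 to 0.15, adjusted p = 0.461), while the authors' deposited table gives mean reads of 376.17 against 221.19 and a fold of 1.7 upwards. The FPKM of Foxd3 therefore did not separate the 2i groups, and 2i Foxd3-/- below means the libraries labelled so. Induced tetON Foxd3 libraries held 53.2 and 50.1 FPKM, against 10.6 and 14.1 in WT libraries (log2 difference 1.99, adjusted p = 0.0145).

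Each library had 11033 to 11919 genes at 1 FPKM or more. All 10 embryonic stem cell markers fixed for the check (Pou5f1, Sox2 and Nanog among them) were at 1 FPKM or more in every library. The 14 fibroblast markers, Fn1 among them, summed to 561 and 529 FPKM in SL Foxd3-/- libraries and to 329 and 408 FPKM in SL Foxd3fl/fl libraries. Without Fn1, a matrix gene that stem cells transcribe as well, the sums were 381 and 355 FPKM in SL Foxd3-/- libraries. They were 213 and 258 FPKM in SL Foxd3fl/fl, 19.1 and 19.1 FPKM in 2i Foxd3-/- and 10.4 and 10.98 FPKM in 2i Foxd3fl/fl libraries. In the last pair they were 5.96 and 9.61 FPKM in tetON Foxd3 libraries and 7.07 and 6.16 FPKM in WT libraries. Lum, a fibroblast marker, was at 0 in all 2i, tetON Foxd3 and WT libraries, and Col3a1 was at 0 in the tetON Foxd3 and WT libraries. Limma called 0 of 12 tested fibroblast markers in SL, 3 of 5 higher and 1 lower in 2i, and 0 of 4 with tetON Foxd3. Of all genes tested, 0.00832% were called in SL and 2.64% with tetON Foxd3. In 2i, 47.9% were called higher and 19.7% lower. The part of these markers in the values below was not tested.

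Promoters of 3 members are shown first, because the members they belong to moved most in 2i or carry the motif of the pathway. RefSeq promoters (GRCm38.p6, 250 bases before to 50 after the start, gene strand) matched 8 of the 10 members, in 10 entries; Hes1 and Hey1 were not among them. The core TGGGAA, bound by RBPJ, was searched on both strands and is in capitals where found, and the N-box CACNAG, bound by Hes proteins, was searched likewise. The Lfng promoter (chr5:140607091-140607390, plus strand) holds 2 RBPJ cores, the first on the opposite strand, at positions -135 and -108 from the start. The Dll1 promoter shown (chr17:15376883-15377182, minus strand) and the Notch1 promoter (chr2:26503773-26504072, minus strand) hold no such core in this window.
Lfng: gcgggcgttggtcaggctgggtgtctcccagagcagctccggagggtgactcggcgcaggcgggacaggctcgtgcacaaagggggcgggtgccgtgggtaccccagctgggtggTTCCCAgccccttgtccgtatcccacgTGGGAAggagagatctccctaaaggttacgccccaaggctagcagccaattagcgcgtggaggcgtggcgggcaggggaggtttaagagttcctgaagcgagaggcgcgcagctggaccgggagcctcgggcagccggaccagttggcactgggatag
Dll1: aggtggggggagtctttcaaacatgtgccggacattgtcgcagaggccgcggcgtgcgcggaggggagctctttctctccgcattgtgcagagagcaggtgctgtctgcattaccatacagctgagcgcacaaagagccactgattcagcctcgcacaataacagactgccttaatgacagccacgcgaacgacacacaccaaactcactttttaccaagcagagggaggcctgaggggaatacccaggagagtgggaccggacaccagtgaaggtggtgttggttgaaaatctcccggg
Notch1: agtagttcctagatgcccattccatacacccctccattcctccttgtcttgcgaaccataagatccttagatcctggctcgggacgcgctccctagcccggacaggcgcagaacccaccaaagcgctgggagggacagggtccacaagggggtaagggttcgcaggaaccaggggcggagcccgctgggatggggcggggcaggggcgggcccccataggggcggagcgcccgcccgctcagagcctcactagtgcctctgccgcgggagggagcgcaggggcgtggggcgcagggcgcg
An RBPJ core was found for 1 of the 8 matched members (Lfng), and 25.6% of all 32851 promoters hold one. An N-box was found for 6 of the 8, Notch1 with 3 of them, and 42.5% of all promoters hold one. These shares of all promoters count single entries, while a member was counted if any of its entries matched. The 2 measures are therefore unlike: Dll1 and Hes6 have 2 entries each, and 1 entry of each holds no N-box. These matches describe the letters of the windows and were not measured as binding.

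Levels per transcript length differed widely between the members and between the groups, and because each pair of groups was deposited in a table of its own, levels across pairs are a description. Among the ligand genes, Dll1 (chr17:15367354-15376872, GRCm38) averaged 8.82 ± 5.93 FPKM in SL Foxd3-/- and 9.56 ± 6.06 FPKM in SL Foxd3fl/fl cells (SD, n = 2 here and below). Its means were 4.11 ± 1.5 FPKM in 2i Foxd3-/- and 30.1 ± 0.0403 FPKM in 2i Foxd3fl/fl cells, and 2.25 ± 0.387 FPKM in tetON Foxd3 and 1.13 ± 0.639 FPKM in WT cells. The 2i Foxd3fl/fl group was highest and WT lowest, and 2i Foxd3-/- and both SL groups overlapped their neighbours in the order. Jag1 (chr2:137081456-137116644) averaged 17.2 ± 0.198 FPKM in SL Foxd3-/- and 20.5 ± 3.06 FPKM in SL Foxd3fl/fl cells, 6.99 ± 0.0348 FPKM in 2i Foxd3-/- and 11.8 ± 0.414 FPKM in 2i Foxd3fl/fl cells, and 4.77 ± 0.569 FPKM in tetON Foxd3 and 2.60 ± 0.00396 FPKM in WT cells. No groups next to each other in the order of these means overlapped. Dll3 (chr7:28293553-28302238), a Delta family member that acts inside the cell rather than as an activating ligand, was the lowest ligand gene, at 0.604 ± 0.210 to 1.13 ± 0.241 FPKM in the 2i, tetON Foxd3 and WT groups, with 3.06 ± 1.84 FPKM in SL Foxd3-/- and 3.48 ± 1.75 FPKM in SL Foxd3fl/fl cells.

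The receptor genes were present in every library. Notch1 (chr2:26457903-26516663) stood at 16.3 ± 0.481 FPKM in 2i Foxd3-/- cells, above all other groups, whose means ran between 6.21 ± 0.276 FPKM in WT and 8.90 ± 1.01 FPKM in SL Foxd3-/- cells. Notch2 (chr3:98013527-98150361) ran from 2.14 ± 0.317 FPKM in 2i Foxd3fl/fl to 5.65 ± 0.476 FPKM in SL Foxd3-/- cells. Notch3 (chr17:32120820-32166852) was highest in tetON Foxd3 cells, at 16.1 ± 0.164 FPKM, and lowest in 2i Foxd3fl/fl cells, at 6.0 ± 0.193 FPKM, and the WT group and both SL groups overlapped in between. Lfng (chr5:140607320-140615545) lay between 0.966 ± 0.586 FPKM in WT and 4.25 ± 0.516 FPKM in 2i Foxd3fl/fl cells, with neighbours overlapping from 2i Foxd3-/- upwards.

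Of the effectors, Hes1 (chr16:30064384-30067796), a repressor of the basic helix-loop-helix class, had the highest mean of the members in each group, from 22.9 ± 3.40 FPKM in 2i Foxd3-/- to 52.2 ± 4.59 FPKM in tetON Foxd3 cells. Dll1 came nearest to it in 2i Foxd3fl/fl cells, where Hes1 had 38.6 ± 5.52 FPKM. Hes6 (chr1:91411483-91414038), which is known to counteract Hes1, ran from 7.45 ± 0.210 FPKM in WT to 22.1 ± 0.108 FPKM in 2i Foxd3fl/fl cells. Hey1 (chr3:8663359-8667256), a related repressor, ran without overlap of neighbours from 0.880 ± 0.208 FPKM in WT to 7.09 ± 0.511 FPKM in SL Foxd3-/- cells.

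**Figure D1:**
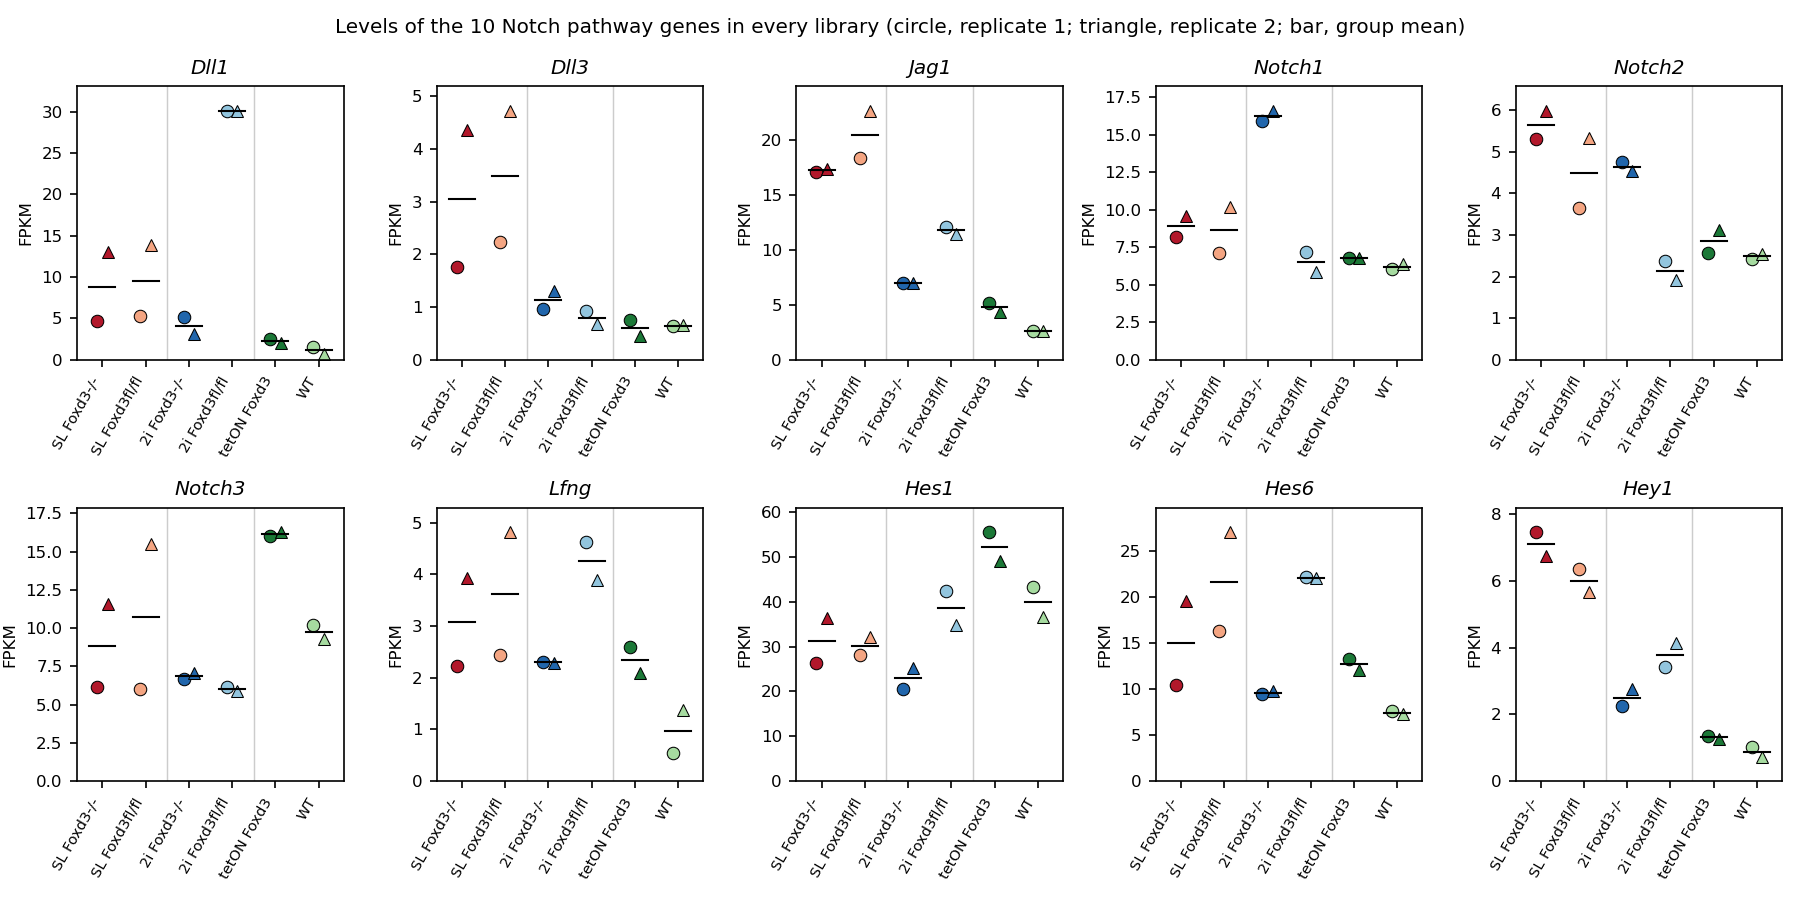
FPKM (y axis, from 0, a scale of its own in each panel) of the 10 genes in every library, by group along the x axis; circles are replicate 1, triangles replicate 2 and bars the group mean. Dll1 stands at 30.1 FPKM in both 2i Foxd3fl/fl libraries and at 5.17 and 3.05 FPKM in the 2i Foxd3-/- libraries, while in SL the replicates of a group lie farther apart than the groups.

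In 2i medium the comparison asks what changed in cells labelled as deleted for Foxd3. The ligand genes Dll1 and Jag1, the fringe gene Lfng and the effectors Hes1, Hes6 and Hey1 fell, and the receptor genes Notch1 and Notch2 rose. Limma called 2 of the 10 members higher and 6 lower at an adjusted p under 0.05; over the 11637 genes tested, 47.9% were called higher and 19.7% lower, 67.6% in either direction. Since most genes were called, being called is no mark of these members, and the direction and size are given beside the background. The median difference of the 10 members was -0.56, against 0.19 for all genes tested, and after median-of-ratios scaling it was -0.73, against -0.02. After scaling the counts were again 2 higher and 6 lower, where 30.3% of genes were called higher and 33.8% lower. Of the 10 stem cell markers 6 were called higher and 0 lower in 2i, beside the unscaled shares of 47.9% and 19.7% of all genes. Nanog had 273 and 287 FPKM in 2i Foxd3-/- and 145 and 142 FPKM in 2i Foxd3fl/fl libraries. Klf4 had 47.7 and 53.6 FPKM in 2i Foxd3-/- and 21.0 and 18.1 FPKM in 2i Foxd3fl/fl libraries. Pou5f1 went the other way without a call, with 404 and 410 FPKM in 2i Foxd3-/- and 423 and 441 FPKM in 2i Foxd3fl/fl libraries. Of 5 tested neural progenitor markers 1 was called higher and 2 lower, beside the same shares of all genes. The sums of these markers were 15.0 and 15.4 FPKM in 2i Foxd3-/- and 12.6 and 12.4 FPKM in 2i Foxd3fl/fl libraries. The part of these markers in the member values was not tested. In bulk RNA, fewer cells of a type and less RNA per cell cannot be told apart.

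Dll1 had 5.17 and 3.05 FPKM in the 2i Foxd3-/- libraries and 30.1 and 30.1 FPKM in the 2i Foxd3fl/fl libraries. The groups were far apart, and the mean in 2i Foxd3-/- cells was 0.137 of that in 2i Foxd3fl/fl cells. The difference on the log2(FPKM + 1) scale was -2.64 (SE 0.17, interval -3.02 to -2.25, limma adjusted p = 9.85e-06), and the authors' deposited table gives a fold of -9.26 with mean reads of 292.81 against 2912.86. Jag1, the second ligand gene to fall, had 6.97 and 7.02 FPKM in 2i Foxd3-/- libraries and 12.1 and 11.5 FPKM in 2i Foxd3fl/fl libraries (log2 difference -0.68, interval -0.87 to -0.48, adjusted p = 0.000202). Its replicates lay much closer to each other than the groups did. Dll3 had 0.960 and 1.30 FPKM in 2i Foxd3-/- libraries against 0.916 and 0.683 FPKM in 2i Foxd3fl/fl libraries, close to the filter of 1 FPKM, and did not pass the test (log2 difference 0.24, interval -0.03 to 0.52, adjusted p = 0.104). It did pass without 2i Foxd3-/- replicate 1 (0.36, adjusted p = 0.0497) or without 2i Foxd3fl/fl replicate 1 (0.34, adjusted p = 0.042).

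Notch1 had 15.9 and 16.6 FPKM in 2i Foxd3-/- libraries and 7.18 and 5.82 FPKM in 2i Foxd3fl/fl libraries, so both 2i Foxd3-/- libraries were above both of the others (log2 difference 1.21, SE 0.10, adjusted p = 3.37e-05). The rise of Notch2 was smaller, with 4.75 and 4.53 FPKM in 2i Foxd3-/- against 2.37 and 1.92 FPKM in 2i Foxd3fl/fl libraries (log2 difference 0.85, adjusted p = 0.000234). Both rises held after scaling, at 1.00 and 0.68 on the log2 scale. Notch3, the third receptor gene, did not pass the test: 6.70 and 7.08 FPKM in 2i Foxd3-/- libraries stood against 6.14 and 5.86 FPKM in 2i Foxd3fl/fl libraries (log2 difference 0.17, interval -0.04 to 0.38, adjusted p = 0.128), and its difference was -0.02 after scaling.

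Lfng, whose promoter is printed above with its RBPJ cores, had 2.31 and 2.29 FPKM in 2i Foxd3-/- libraries and 4.62 and 3.89 FPKM in 2i Foxd3fl/fl libraries (log2 difference -0.67, interval -0.92 to -0.42, adjusted p = 0.000723). Its call was lost when all 12 libraries were fitted together (adjusted p = 0.0766). Hes1 had 20.5 and 25.3 FPKM in 2i Foxd3-/- libraries, against 42.5 and 34.7 FPKM in 2i Foxd3fl/fl libraries (log2 difference -0.73, interval -0.99 to -0.47, adjusted p = 0.000649). For Hes6 the replicates nearly coincided, with 9.43 and 9.78 FPKM in 2i Foxd3-/- and 22.2 and 22.0 FPKM in 2i Foxd3fl/fl libraries (log2 difference -1.12, interval -1.29 to -0.96, adjusted p = 1.12e-05). Hey1 had 2.24 and 2.77 FPKM in 2i Foxd3-/- against 3.43 and 4.14 FPKM in 2i Foxd3fl/fl libraries (log2 difference -0.45, adjusted p = 0.0101), and its call was lost without 2i Foxd3-/- replicate 1 (-0.34, adjusted p = 0.0782).

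The groups did not overlap for any of the 10 members in 2i, a pattern that 85.3% of all genes tested also had. A fold of at least 2 on the log2(FPKM + 1) scale was then required as well, a rule added after the data were seen. Notch1 was then the member called higher and Dll1 and Hes6 the members called lower, where 5.11% and 1.56% of all genes passed. Notch2 missed the rule on this scale, with a fold of 1.80, though its ratio of mean FPKM was 2.17. The authors' deposited table, with its p-values adjusted here over all 19718 genes, gave 2 members higher and 6 lower, where 20.6% and 20.2% of all genes were called. Its fold was 2.04 for Notch1, 1.81 for Notch2, -2.76 for Hes6, -2.21 for Lfng, -1.95 for Hes1, -1.87 for Jag1 and -1.71 for Hey1.

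**Figure D2:**
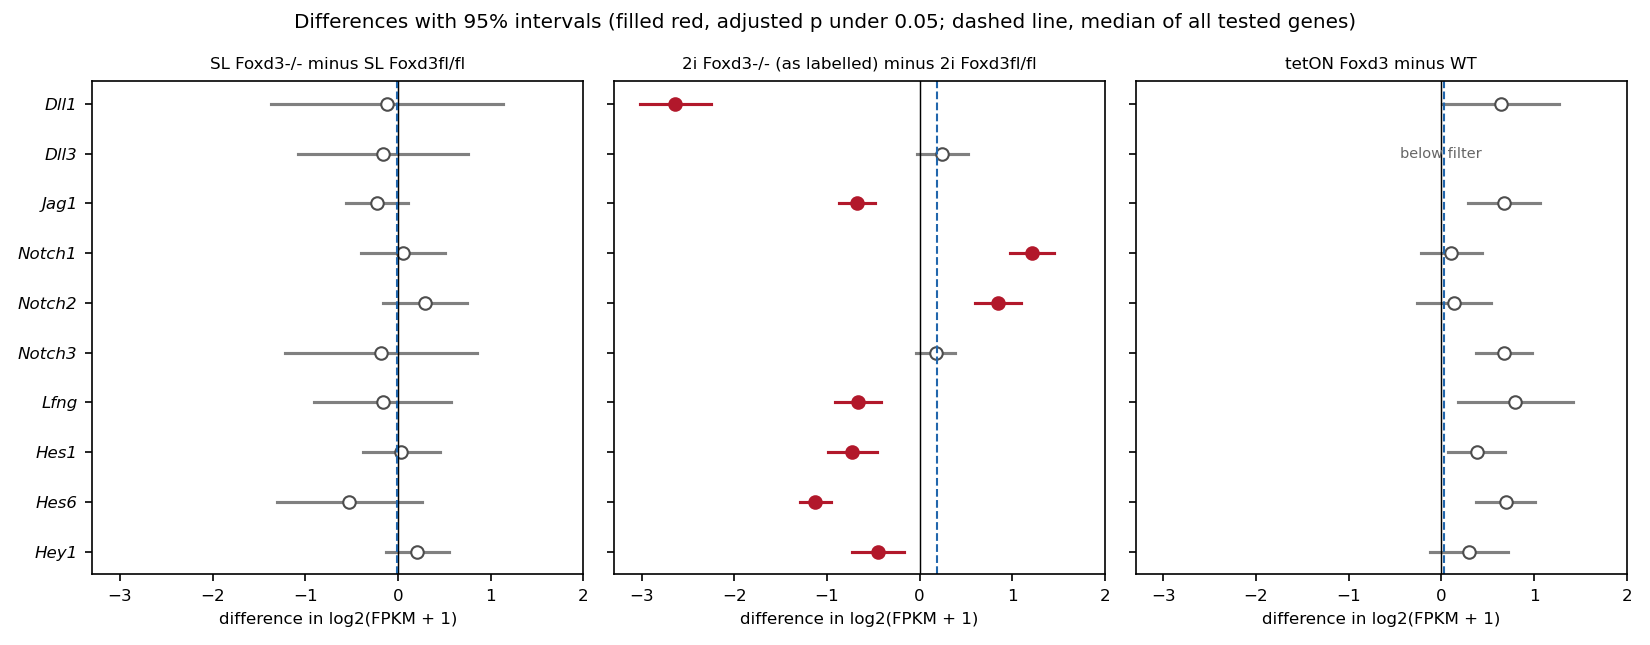
Differences in log2(FPKM + 1) (x axis) of the 10 genes in each comparison, with 95% intervals from limma; filled red points have an adjusted p under 0.05 and the dashed line is the median of all genes tested. In 2i, 6 genes lie below 0 and 2 above with adjusted p under 0.05, whereas none is called in SL or with tetON Foxd3. These fits leave the replicate number out. Dll3 was below the filter in the tetON Foxd3 pair.

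Foxd3 was overexpressed in another line and without feeders. By label this is opposite to deletion, but the FPKM of Foxd3 did not separate the 2i groups. None of the 9 members that reached 1 FPKM passed limma's adjusted threshold in the main fit, where 2.64% of 11972 genes were called. At an unadjusted p under 0.05 there were 6 of the 9 (Dll1, Jag1, Notch3, Lfng, Hes1 and Hes6), where 20.8% of all genes reached it, while p-values from the authors' deposited table, once adjusted, called Jag1 and Notch3 higher, where 4.55% of genes were called and 1.96% called higher. The 9 differences were all positive, and the share of all genes with a positive difference is not given here. The groups of none of these 9 overlapped, a separation that 52.3% of all genes had. Lfng and Hey1 reached the filter through the tetON Foxd3 group alone, with means of 0.966 and 0.880 FPKM in WT cells. Dll3, left out by the filter, had overlapping groups, and its mean in tetON Foxd3 cells was 0.933 of that in WT cells. The median of the 9 was 0.64, against 0.03 for all genes tested. The main fit leaves the replicate number out. With that number added to the fit as a block, 6 members were called higher. The share of all genes called under the block is not given here.

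Among the ligand genes, Jag1 had 5.17 and 4.37 FPKM in tetON Foxd3 libraries and 2.60 and 2.60 FPKM in WT libraries (log2 difference 0.68, interval 0.29 to 1.06, limma adjusted p = 0.0868), and the authors' deposited table gives a fold of 1.91, with p = 0.0146 after the adjustment. Dll1 was low throughout, at 2.52 and 1.98 FPKM in tetON Foxd3 against 1.58 and 0.676 FPKM in WT libraries (0.64, interval 0.01 to 1.27, adjusted p = 0.235). Dll3 stayed under 1 FPKM in all 4 libraries, with 0.752 and 0.456 FPKM in tetON Foxd3 and 0.636 and 0.659 FPKM in WT cells, and was not tested. Its groups overlapped.

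Notch3 had 16.03 and 16.3 FPKM in tetON Foxd3 libraries and 10.2 and 9.27 FPKM in WT libraries, with replicates close together and groups apart (log2 difference 0.68, interval 0.37 to 0.98, limma adjusted p = 0.0553); the authors' deposited table gives a fold of 1.64, with p = 0.00405 after adjustment. The other receptor genes differed little: Notch1 had 6.78 and 6.77 FPKM in tetON Foxd3 and 6.02 and 6.41 FPKM in WT libraries (log2 difference 0.11, interval -0.22 to 0.44), and Notch2 had 2.58 and 3.11 FPKM in tetON Foxd3 and 2.43 and 2.54 FPKM in WT libraries (log2 difference 0.14, interval -0.26 to 0.53). Lfng had 2.59 and 2.10 FPKM in tetON Foxd3 and 0.552 and 1.38 FPKM in WT libraries (log2 difference 0.80, interval 0.17 to 1.42, adjusted p = 0.156), and the authors' deposited fold of 2.47 had p = 0.0507 after adjustment.

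Hes6 had 13.3 and 12.1 FPKM in tetON Foxd3 libraries, against 7.60 and 7.30 FPKM in WT libraries (log2 difference 0.70, interval 0.38 to 1.01, limma adjusted p = 0.0576). Hes1 had 55.5 and 49.0 FPKM in tetON Foxd3 and 43.3 and 36.6 FPKM in WT libraries (0.38, interval 0.07 to 0.69, adjusted p = 0.169). Both effectors were higher in 2 of 2 tetON Foxd3 libraries without passing the adjusted threshold. Hey1 lay near the filter, with 1.35 and 1.26 FPKM in tetON Foxd3 and 1.03 and 0.733 FPKM in WT libraries (0.30, interval -0.12 to 0.72, adjusted p = 0.385). The 11 neural progenitor markers in the table summed to 28.2 and 27.8 FPKM in tetON Foxd3 and to 10.5 and 15.5 FPKM in WT libraries, with 2 of the 5 tested called higher and none lower. Of the 10 stem cell markers, 0 were called higher and 2 lower, with sums of 3215 and 2693 FPKM in tetON Foxd3 and 3897 and 3796 FPKM in WT libraries. Of all genes tested in this pair, 0.994% were called higher and 1.65% lower. The part of these markers in the member values was not tested.

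The 2i and overexpression comparisons share no libraries. Across all genes, 180 were called in both, and 121 of these (67.2%) went in opposite directions; of the members, 0 were called in both. Set side by side, Dll1, Jag1, Lfng, Hes1, Hes6 and Hey1 had negative differences with TM in 2i and positive differences with tetON Foxd3. Notch1, Notch2 and Notch3 were positive in both, except that Notch3 in 2i was -0.02 after scaling. None of these 9 differences with tetON Foxd3 passed limma's adjusted threshold in the main fit. The share of all genes with opposite signs, called or not, is not given here, so these signs lack a background.

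In SL, where Foxd3 FPKM was lower in both SL Foxd3-/- libraries, none of the 10 members was called by limma in the main fit. There 0 of 10 had an unadjusted p under 0.05, where 9.12% of 12024 genes did, and 0.00832% of genes were called after adjustment. The authors' deposited p-values called 0 of 10 as well, where 0.535% of genes were called. Their median difference was -0.14, against -0.01 for all genes. The groups did not overlap for Jag1 and Hey1, a separation that 37% of genes had. Jag1 had 17.1 and 17.4 FPKM in SL Foxd3-/- libraries and 18.3 and 22.7 FPKM in SL Foxd3fl/fl libraries (log2 difference -0.23, interval -0.56 to 0.11). Hey1 had 7.45 and 6.73 FPKM in SL Foxd3-/- and 6.34 and 5.67 FPKM in SL Foxd3fl/fl libraries (0.21, interval -0.13 to 0.55).

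In SL most members differed more by replicate number than by genotype. In 8 of the 10 members, all but Jag1 and Hey1, both libraries numbered 2 were above both numbered 1, a pattern found in 27.1% of all genes tested. Dll1 had 4.62 and 13.0 FPKM in SL Foxd3-/- replicates 1 and 2 and 5.27 and 13.8 FPKM in SL Foxd3fl/fl replicates 1 and 2, a ratio between replicates of 2.81 in SL Foxd3-/- and 2.63 in SL Foxd3fl/fl cells. That ratio was 2.48 and 2.11 for Dll3, whose libraries held 1.76 and 4.36 FPKM in SL Foxd3-/- and 2.24 and 4.73 FPKM in SL Foxd3fl/fl cells. Notch3 had 6.13 and 11.6 FPKM in SL Foxd3-/- and 6.05 and 15.5 FPKM in SL Foxd3fl/fl cells, and Lfng had 2.23 and 3.93 FPKM in SL Foxd3-/- and 2.44 and 4.81 FPKM in SL Foxd3fl/fl cells. Of 8 presomitic and early mesoderm markers in the table, the sum was 15.6 and 6.41 FPKM in SL Foxd3-/- and 11.1 and 5.18 FPKM in SL Foxd3fl/fl replicates 1 and 2. Most of it came from the brachyury gene T, with 10.3 and 2.46 FPKM in SL Foxd3-/- and 4.72 and 1.11 FPKM in SL Foxd3fl/fl cells, and from Eomes, while Tbx6 was higher in replicate 2 of both groups; the part of these markers in the pattern was not tested.

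The difference of Dll1 between the SL groups was -0.12 with an interval of -1.37 to 1.13, which leaves out a change of the size measured in 2i and takes in smaller ones of either sign. Hes6 had 10.4 and 19.6 FPKM in SL Foxd3-/- against 16.3 and 27.1 FPKM in SL Foxd3fl/fl replicates 1 and 2, lower in SL Foxd3-/- at each number (log2 difference -0.52, interval -1.31 to 0.26, limma adjusted p = 0.752). When SL Foxd3-/- replicate 2 was left out, the difference was -0.95. That fit is unbalanced, because Hes6 was higher in both libraries numbered 2 and only SL Foxd3fl/fl kept its own. With the replicate number added to the fit as a block, the difference was -0.52 (limma adjusted p = 4.21e-06). The share of all genes called under the block is not given here. The receptors Notch1, at 8.19 and 9.62 against 7.14 and 10.2 FPKM, and Notch2, at 5.31 and 5.98 against 3.64 and 5.33 FPKM, had differences of 0.05 and 0.29 (SL Foxd3-/- libraries given first in each). Hes1 had 26.3 and 36.3 FPKM in SL Foxd3-/- and 28.2 and 32.1 FPKM in SL Foxd3fl/fl cells, a difference of 0.04. In 2i the replicate pattern was seen in 0 of 10 members, where 4.85% of genes had it, and in the tetON Foxd3 pair in 0 of 9, where 16.2% had it.

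**Figure D3:**
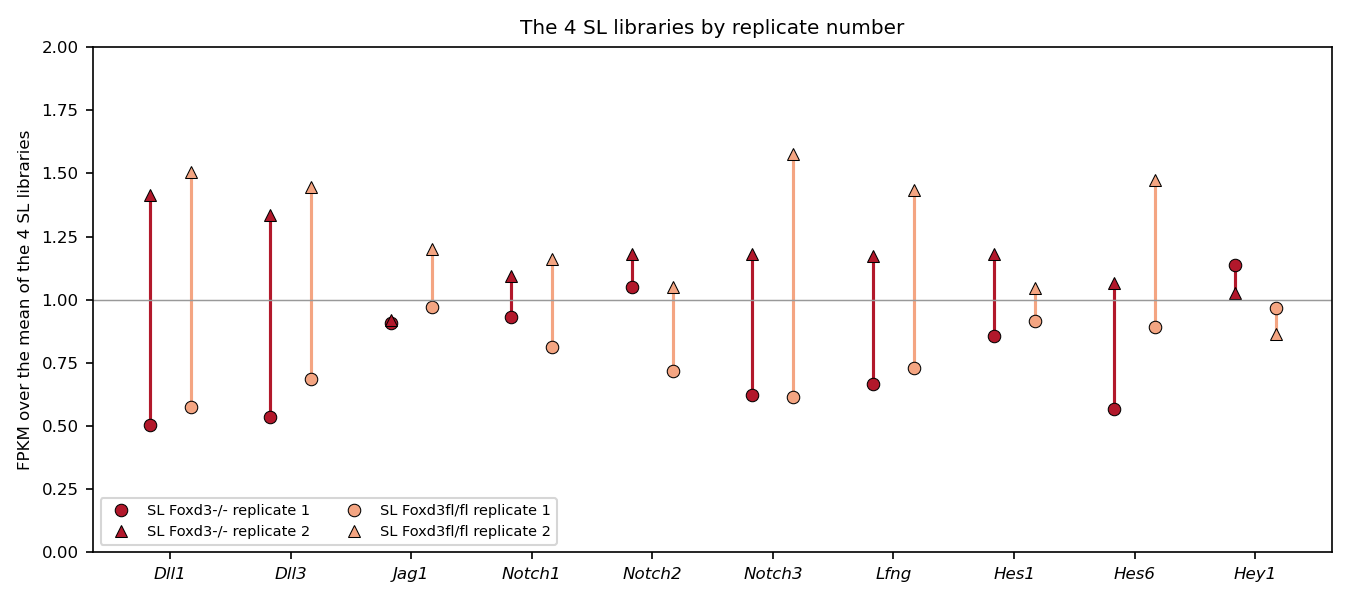
FPKM of the 10 genes in the 4 SL libraries, each divided by the gene's mean over those libraries (y axis, no unit, from 0); lines join replicate 1 (circle) to replicate 2 (triangle) of a group. Both libraries numbered 2 are above both numbered 1 in 8 genes, with the widest gaps for Dll1, Dll3, Notch3, Lfng and Hes6, and Jag1 and Hey1 are the exceptions.

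Whether the change on TM differed between the media was tested directly, as the 2i difference minus the SL difference over the 8 Foxd3fl/fl;Cre-ER libraries. That value was called higher for 1 member and lower for 3, where 18.4% and 5.55% of 12497 genes were called so, 23.9% in either direction. Dll1 had the largest value among the members, -2.51 (interval -4.03 to -1.0, limma adjusted p = 0.029), made of -2.64 in 2i and -0.12 in SL. Notch1 had 1.16 (adjusted p = 0.0124), Hes1 -0.77 (adjusted p = 0.0487) and Hey1 -0.66 (adjusted p = 0.0386). These calls rested on single libraries. That of Dll1 was lost without SL Foxd3-/- replicate 2 (-1.86, limma adjusted p = 0.0581) and without any 1 of the 4 2i libraries (-2.82 to -2.21, adjusted p 0.0564 to 0.113). That of Notch1 was lost without 2i Foxd3-/- replicate 2 (1.13, adjusted p = 0.0627) or 2i Foxd3fl/fl replicate 2 (1.03, adjusted p = 0.0607). Hes1 no longer passed without SL Foxd3-/- replicate 2, SL Foxd3fl/fl replicate 1 or any 1 of the 2i libraries (-0.91 to -0.54, adjusted p 0.0798 to 0.16). Hey1 no longer passed without any 1 library other than SL Foxd3fl/fl replicate 1 (-0.77 to -0.55, adjusted p 0.0537 to 0.143). Hes6 fell in 2i without a difference between the media that passed the test (-0.60, interval -1.49 to 0.29, adjusted p = 0.287), and Jag1 passed it after scaling (-0.64, adjusted p = 0.0221) but not before (-0.45, adjusted p = 0.0729). Jag1 also passed without SL Foxd3fl/fl replicate 2 (-0.59, adjusted p = 0.0187), and Notch2 passed without SL Foxd3fl/fl replicate 1 (0.78, adjusted p = 0.0213).

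The rest of the pathway was read from 60 further genes in 5 lists. In 2i, 46 of the 60 reached 1 FPKM, of which 28 rose, 9 fell and 9 did not pass the test. Of all genes, 47.9% were called higher and 19.7% lower, 67.6% in either direction. After scaling, 19 rose and 12 fell, where 30.3% of all genes were called higher and 33.8% lower. Their median difference was 0.36, against 0.19 for all genes. Among 17 tested genes of the nuclear complex and its corepressors, 12 rose and 3 fell, beside the same shares of 47.9% and 19.7%. After scaling 11 were higher and 3 lower, beside 30.3% and 33.8%. Rbpj, the DNA-binding protein of the pathway, had 70.7 and 69.0 FPKM in 2i Foxd3-/- libraries against 28.3 and 28.3 FPKM in 2i Foxd3fl/fl libraries (log2 difference 1.27, limma adjusted p = 1.85e-06). The corepressor gene Ncor1 rose by 0.71 and the acetyltransferase gene Kat2b by 0.79 on the log2 scale, while the Groucho corepressor gene Tle3 fell by 0.69, at 79.4 and 77.2 FPKM in 2i Foxd3-/- against 131 and 124 FPKM in 2i Foxd3fl/fl libraries.

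Genes that process ligands and receptors numbered 25 tested in 2i, with 15 called higher and 4 lower, where 47.9% and 19.7% of all genes were; after scaling they were 8 higher and 7 lower, where 30.3% and 33.8% of all genes were. The ubiquitin ligase gene Mib2 had 22.1 and 23.5 FPKM in 2i Foxd3-/- and 10.4 and 7.39 FPKM in 2i Foxd3fl/fl libraries (log2 difference 1.28). Numbl, related to the Notch inhibitor Numb, rose by 0.80 and the Deltex gene Dtx2 by 0.56. Of the 2 tested ligand genes, Jag2 had 9.34 and 8.95 FPKM in 2i Foxd3-/- and 6.37 and 7.06 FPKM in 2i Foxd3fl/fl libraries (0.40, limma adjusted p = 0.00507), a call that was lost after scaling (adjusted p = 0.0915). Of 11 listed target genes 3 were tested, and these 3 fell, where 19.7% of all genes were called lower, or 33.8% after scaling: Ccnd1, a cyclin gene, to 8.45 and 9.17 FPKM in 2i Foxd3-/- against 21.5 and 19.0 FPKM in 2i Foxd3fl/fl libraries (-1.11), Bhlhe40 to 20.0 and 21.2 against 38.7 and 38.7 FPKM (-0.88), and Dtx1 to 22.3 and 22.8 against 31.3 and 28.1 FPKM (-0.38). In the fit of all 12 libraries the calls of Bhlhe40 and Dtx1 were lost (adjusted p = 0.335 and 0.337).

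With tetON Foxd3, 1 of 47 further genes tested rose and 1 fell, where 0.994% of all genes were called higher and 1.65% lower. Jag2 had 7.47 and 6.96 FPKM in tetON Foxd3 and 3.14 and 3.08 FPKM in WT libraries (log2 difference 1.00, limma adjusted p = 0.0404). Rbpj had 61.6 and 73.8 FPKM in tetON Foxd3 and 106 and 113 FPKM in WT libraries (-0.69, adjusted p = 0.0494). Neither call was stable: the adjusted p of Jag2 was 0.0657 to 0.139 with any 1 library left out, and that of Rbpj was 0.0526 after scaling, 0.111 without tetON Foxd3 replicate 1, 0.13 without WT replicate 1 and 0.115 without WT replicate 2. In SL, 0 of 50 were called by limma, where 0.00832% of all genes were.

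The 2i difference minus the SL difference was called higher for 15 of 53 further genes and lower for 3. Of all genes, 18.4% and 5.55% were called so. This value compares the changes on TM, not the levels in the media. Maml1, a coactivator gene of the Notch complex, had 1.14 and Ctbp1, a corepressor gene, 0.83, while Ccnd1 had -1.02 and Bhlhe40 -1.12 on the log2 scale, and these 4 also passed after scaling. After scaling, 7 were higher and 5 lower, where 9.84% and 11.7% of all genes were called so, and Ncor1 and Rfng were among those that no longer passed (adjusted p of 0.060 and 0.070).

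The genes most like Dll1 and Notch1, the members with the widest range over the 12 libraries after each table was centred on its mean (2.94 and 1.37 on the log2 scale), were found among 11872 genes by Pearson's r. These r values describe 12 libraries that share groups and carry no p. For Dll1 they were Mafk, a small Maf transcription factor gene (r = 0.976), the relaxin gene Rln1 (0.970) and Tmem106b, a lysosomal membrane protein gene (0.966). Tmem106b had 21.7 and 19.3 FPKM in 2i Foxd3-/- and 32.7 and 32.5 FPKM in 2i Foxd3fl/fl libraries, and like Dll1 it was higher in both SL libraries numbered 2 than in both numbered 1. For Notch1 they were Tab2, a kinase adaptor gene (r = 0.990), the zinc finger gene Zfp759 (0.989) and Kmt2b, a histone H3 lysine methyltransferase gene (0.989). Kmt2b had 22.7 and 24.2 FPKM in 2i Foxd3-/- and 17.1 and 15.9 FPKM in 2i Foxd3fl/fl libraries, a smaller change than that of Notch1.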

How the data were processed

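RNA-seq of 12 mouse embryonic stem cell libraries was analysed from 3 deposited tables, 1 per pair of groups. The submitters' processing notes name TopHat2, Cufflinks, SAMtools, FastQC and DESeq2 with GRCm38 (mm10), without versions. By the column names, the authors deposited FPKM per library, a mean read signal per group, a fold change and a p-value. The fold change carries a sign. The p-value was taken as unadjusted, which its name does not state. FPKM is not a count, so no count test was run and the depth of single libraries is unknown; the mean read signal of a group summed to between 24278900 and 54096100 reads.

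Each pair was fitted alone with limma 3.58.1 (R 4.3.3; empirical Bayes with a trend) on log2(FPKM + 1), which understates changes of low genes, keeping genes whose mean reached 1 FPKM in 1 group or more. P-values were adjusted by Benjamini-Hochberg over all genes tested, with a threshold of 0.05. With 2 libraries against 2, the smallest 2-sided p of an exact permutation test is 0.3333. The scripts were tested on simulated data. The authors' p-values were adjusted the same way over all genes of a table. Alternatives were a pseudocount of 0.1, no filter, median-of-ratios scaling, all 12 libraries in 1 fit, a replicate block and each library left out.

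Members and gene lists were chosen with earlier results of these data known. All 10 members are named; of each further list and comparison, up to 4 genes with the lowest adjusted p past the threshold were eligible, and the 3 most alike genes of each of 2 members. Coordinates are from GENCODE M21 (GRCm38), and the columns of per-sample values left unused numbered 0. A single result of the further lists is not reported here.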

Additional observations from a re-analysis of the deposited data

Results flagged for a closer look

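The change on TM differed between 2i and SL for 4 of the 10 members by limma's interaction test with adjusted p-values over 12497 genes, where 23.9% of all genes were called. The 2i difference minus the SL difference, in log2(FPKM + 1), was -2.515 for Dll1 (adjusted p = 0.029), 1.158 for Notch1 (adjusted p = 0.0124), -0.7662 for Hes1 (adjusted p = 0.0487) and -0.6589 for Hey1 (adjusted p = 0.0386). Dll1, Hes1 and Hey1 were lower in 2 of 2 2i Foxd3-/- libraries than in both 2i Foxd3fl/fl libraries, and Notch1 was higher in 2 of 2. Of all genes tested in 2i, 85.3% had groups that did not overlap, so this separation is no mark of these members. In SL the groups overlapped for Dll1, Notch1 and Hes1, while Hey1 was higher in 2 of 2 SL Foxd3-/- libraries. A separation in SL was found for 37% of all genes tested. Each of the 4 calls was lost when certain single libraries were left out. Feeders and medium cannot be told apart in this difference.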

How the results depend on the processing

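In 2i, 2 members were higher and 6 lower under scaling, and with a fold of at least 2 as well the counts were 1 and 2; for the further genes they were 3 and 1 under that rule, and 4 were lower with all 12 libraries. In SL the replicate block gave 1 member lower and 3 further genes higher and 4 lower, all 12 libraries gave 1 further gene higher, and leaving out single libraries gave 0 to 1 in each of these counts. The replicate 2 minus replicate 1 difference of each gene was correlated between the groups of a comparison, across all genes tested. The correlation was 0.60 in SL (12024 genes), -0.05 in 2i (11637 genes) and 0.60 with tetON Foxd3 (11972 genes). What libraries of the same number share is not in the labels, and the main fits left the number out. In SL and the tetON Foxd3 pair the spread that goes with the number therefore counted as error in those fits. Under the block Hes6 in SL was called (-0.52, limma adjusted p = 4.21e-06). With tetON Foxd3, members called higher were 6 under the block, 1 with all 12 libraries and 2 by the authors' p-values. By the authors' p-values 1.96% of all genes were called higher. Shares of all genes called under the block, with all 12 libraries or with no filter are not given here. The counts of this section under those settings therefore lack a background. Further genes called higher there were 0 with no filter, 8 under the block, 4 with all 12 libraries and 2 by the authors' p-values, and those lower were 0 with a fold of 2, no filter or scaling, 5 under the block and 2 with all 12; single libraries left out gave 0 to 1 of each. Between media, the block gave 2 members higher and 6 lower, no filter 0 lower, a fold of 2 gave 1 lower, and single libraries left out gave 0 to 2 higher and 0 to 3 lower. Signs turned in SL when single libraries were left out: Dll1 ran from -0.78 to 0.54 (0.54 and 0.50 the positive values), Dll3 from -0.64 to 0.32 (0.32 and 0.25), Notch1 from -0.18 to 0.28 (-0.18 and -0.05), Notch3 from -0.80 to 0.43 (0.43 and 0.22), Lfng from -0.54 to 0.21 (0.21 and 0.14) and Hes1 from -0.19 to 0.26 (-0.19 and -0.05). Notch3 in 2i was -0.023 after scaling and -0.029 in the authors' table, and between media it ran from -0.25 to 0.97 and Dll3 from -0.073 to 0.89. The cause was not tested.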
